A study of Rattus norvegicus with 9 samples.

Results

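8 genes of the oxygen response and of glucose breakdown were followed in PC12 cells, a rat pheochromocytoma line of adrenal chromaffin origin that is used as a model of neurons. They were Hif1a (ENSRNOG00000008292), Vegfa (ENSRNOG00000019598), Adm (ENSRNOG00000027030), Slc2a1 (ENSRNOG00000007284), Hk2 (ENSRNOG00000006116), Pfkfb3 (ENSRNOG00000018911), Gapdh (ENSRNOG00000018630) and Ldha (ENSRNOG00000013009). They were chosen by gene identity, as known members of the hypoxia response and of glycolysis, and make up 8 of the 23426 features listed in each library. The pairing of these identifiers with gene symbols came with that choice and could not be checked here, because 0 of the 23426 identifiers matched the gene table at hand. For the same reason the markers of PC12 and other cell types, and further genes of the pathway, could not be looked up by name.

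RNA was sequenced from 3 groups of 3 libraries, and all groups were the same highly differentiated PC12 cells. Control cells had neither deprivation nor mimics, according to their labels. OGD/R cells went through oxygen and glucose deprivation for 4 h in medium without glucose at 1% O2, followed by 6 h with normal medium and oxygen. OGD/R+miR-483-5p cells received mimics of miR-483-5p by transfection 48 h ahead of the same OGD/R treatment. The labels name no negative-control mimic in the OGD/R libraries, so transfection itself and the mimic cannot be told apart. They also do not say whether the 3 libraries of a group came from separate cultures, so the p-values measure only the spread between these libraries, which may be technical. The mimic was named for a miRNA whose rat mature form is shown here because it is the agent that separates the last group from OGD/R. The sequence is that of RefSeq (GRCr8, chr1:207247903-207247924, minus strand), 5′ to 3′, with the seed (bases 2 to 8) in capitals, and the sequence of the transfected duplex was not used here.
rno-miR-483-5p: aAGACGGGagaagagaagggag

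When oxygen falls, the alpha subunit of hypoxia-inducible factor 1 escapes hydroxylation and breakdown, and it then switches on genes that supply oxygen and sustain ATP production without respiration. These targets include secreted vascular factors, the glucose transporter GLUT1 and several glycolytic enzymes, whose end product pyruvate is turned into lactate. Control of the alpha subunit acts mainly on the protein, so the mRNA of Hif1a is not a measure of the activity of the factor. All values below are mRNA levels after reoxygenation and do not describe the deprivation period itself.

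The values are FPKM, fragment numbers scaled to transcript length and to the total of mapped fragments, which can be compared between genes because they are per length. The total depth of the libraries is unknown from FPKM. In bulk RNA, a change in the number of cells with a transcript and a change in its amount per cell cannot be told apart. Features above 0 numbered 15792 to 16017 per control library, 16506 to 17149 per OGD/R library and 16820 to 17242 per mimic library. On the log2 scale, over features that averaged 1 FPKM or more, OGD/R replicate 3 correlated better with mimic replicates 1 and 2 (Pearson r = 0.9845 and 0.984 across genes, which are not replicates) than with OGD/R replicates 1 and 2 (0.9777 and 0.9677). The values of mimic replicate 3 were 0.9855 (OGD/R replicate 1) and 0.9821 (OGD/R replicate 2), beside 0.9824 (mimic replicate 1) and 0.9805 (mimic replicate 2). The third replicate of each OGD/R-treated group thus had its best correlation in the other group. So had OGD/R replicate 1 (0.9855 with mimic replicate 3, beside 0.9843 with OGD/R replicate 2). The same held for mimic replicate 1 (0.9845 with OGD/R replicate 3, beside 0.9844 with mimic replicate 2). This bears on every comparison of mimics with OGD/R. The 3 comparisons are therefore also given without replicate 3 of both groups, while ratios and orders by level are given with all libraries. Group differences were tested with limma on log2(FPKM + 0.1) over all 9 libraries, with p-values adjusted over the 19394 features with any value above 0. On this scale the fold changes of genes as high as these are close to those of FPKM itself.

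After OGD/R, 6 of the 8 genes were higher than in the controls, namely Adm, Vegfa, Slc2a1, Hk2, Ldha and Gapdh, while Hif1a was lower and Pfkfb3 did not pass the test. The rise ran from 1.53-fold for Gapdh to 8.8-fold for Adm. At an adjusted p under 0.05 from limma, 16.1% of all features tested were higher and 29.8% were lower after OGD/R with FPKM as deposited, an order that turned with median-of-ratios and upper-quartile scaling, after which 52% and 53.4% of the features called were higher. Restricted to the 11798 features that averaged 1 FPKM or more, to which all 8 genes belong, 20.0% were higher and 43.5% lower. The median log2 fold change was 1.21 for the 8 genes, against -0.06 for all features tested and -0.23 for the more abundant set. Control and OGD/R values were separate, with no overlap, for 7 of the 8 genes, but so they were for 53.0% of all features and for 71.5% of the more abundant set. A log2 fold change of 1 or more at an unadjusted p under 0.05 from limma was reached upward by 4 of the 8 genes (Adm, Vegfa, Slc2a1 and Hk2) and by 7.63% of all features. The study set the same numerical limits, but its p-values came from edgeR between 2 groups.

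**Figure D1:**
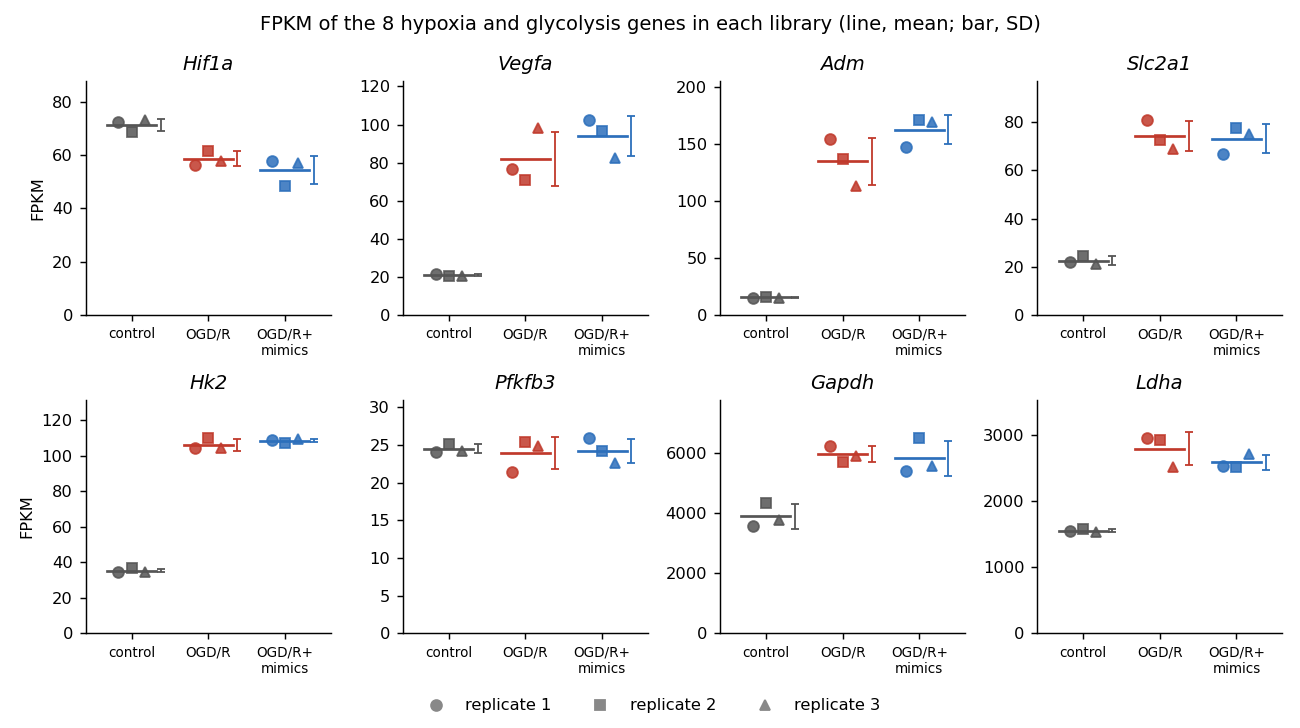
FPKM (vertical axes, each from 0) of the 8 genes in the 9 libraries, by group (horizontal axes). Symbols are single libraries by replicate number, lines are group means and bars are SDs (n = 3). Adm, Vegfa, Slc2a1, Hk2, Gapdh and Ldha lie above the controls in all libraries of both OGD/R groups, Hif1a lies below them, and Pfkfb3 overlaps in all 3 groups.

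Hif1a, which encodes the oxygen-regulated alpha subunit, was listed at 72.3, 68.8 and 73.1 FPKM in control replicates 1, 2 and 3. After OGD/R it was at 56.4, 61.7 and 57.9 FPKM, and with mimics at 57.9, 48.3 and 57.2 FPKM. All 6 OGD/R-treated libraries were below all 3 controls. OGD/R against control gave a log2 fold change of -0.28 (SE 0.08, adjusted p = 0.0139 from limma), close to the median of -0.23 of features that averaged 1 FPKM or more, and Hif1a stood at position 6243 of these 11798 features by log2 fold change, counted from the highest. After median-of-ratios scaling the log2 fold change of Hif1a was -0.058, and after upper-quartile scaling -0.038, and in neither did it pass the threshold (adjusted p = 0.511 and 0.71 from limma, range over all alternatives 0.000489 to 0.71). It also missed the threshold without control replicate 3 (-0.27, adjusted p = 0.0519) and without OGD/R replicate 1 (-0.26, adjusted p = 0.0513, both from limma). With the number of features above 0 as a covariate Hif1a missed it as well (-0.23, SE 0.14, adjusted p = 0.286 from limma). That number was higher in every OGD/R-treated library than in every control, so the covariate and the treatment are confounded in this fit.

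The secreted factors had the largest fold changes with FPKM as deposited. With the number of features above 0 as a covariate, Vegfa (1.46 on the log2 scale) came after Slc2a1 (1.87) and Hk2 (1.61), while Adm (3.49) stayed first. This covariate is confounded with the treatment, as stated for Hif1a. Adm, the precursor of the vasodilator peptide adrenomedullin, was at 15.0, 16.1 and 15.0 FPKM in the controls. It reached 155, 137 and 113 FPKM after OGD/R, the lowest of which was replicate 3, and 148, 171 and 169.6 FPKM with mimics. The 2 OGD/R-treated groups overlapped each other, and both were far above the controls. OGD/R against control gave a log2 fold change of 3.12 (SE 0.11, adjusted p = 7.3e-07 from limma), at position 61 of the 11798 features that averaged 1 FPKM or more. Ordered by FPKM within a library, Adm stood at position 5876 to 6241 in the controls and at 618 to 951 in the 6 OGD/R-treated libraries.

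Vegfa, which encodes the main growth factor of blood vessel endothelium, was at 21.4, 20.5 and 20.4 FPKM in the controls. After OGD/R it was at 76.4, 71.1 and 98.2 FPKM, with replicate 3 the highest, and with mimics at 102, 96.9 and 82.2 FPKM, with replicate 3 the lowest. OGD/R against control gave a log2 fold change of 1.96 (SE 0.12, adjusted p = 8.09e-06 from limma), and 1.82 without replicate 3 of both OGD/R-treated groups. Its coefficient of variation was 2.83% among control libraries and 17.6% among OGD/R libraries (n = 3 each), the widest spread after OGD/R among the 8 genes. Between libraries Vegfa and Adm did not move in step: the ratio of Adm to Vegfa in the same library was 2.03, 1.92 and 1.15 after OGD/R and 1.44, 1.77 and 2.06 with mimics, against 0.698, 0.784 and 0.736 in the controls.

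**Figure D2:**
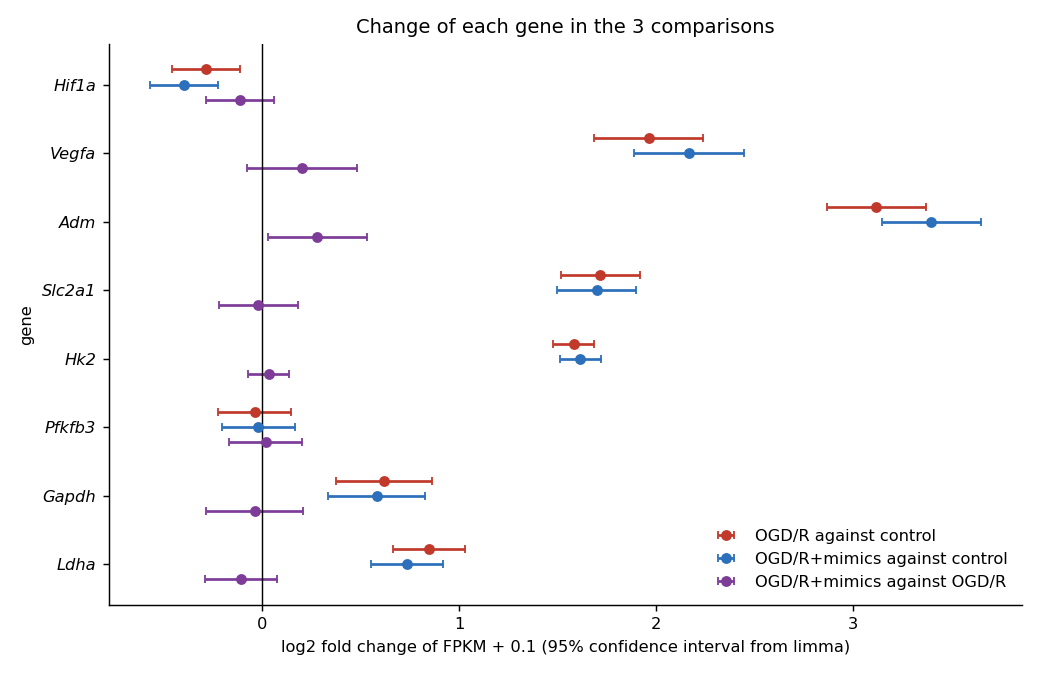
Log2 fold change of FPKM + 0.1 (horizontal axis) for each of the 8 genes (vertical axis) in the 3 comparisons. Points are limma estimates and bars 95% confidence intervals, not adjusted for the number of features. The 2 comparisons with control, which share the control libraries, run from -0.28 and -0.40 for Hif1a to 3.12 and 3.40 for Adm, and the third stays between -0.11 and 0.28.

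The transcripts for glucose entry and its first phosphorylation both rose. Slc2a1, which encodes the glucose transporter GLUT1, gave 21.9, 24.5 and 21.1 FPKM in control libraries. OGD/R libraries held 80.9, 72.8 and 68.8 FPKM of it and mimic libraries 66.6, 77.8 and 75.2 FPKM. Its log2 fold change after OGD/R was 1.72 (SE 0.09, adjusted p = 3.79e-06 from limma). Hk2, a hexokinase that traps glucose in the cell as glucose 6-phosphate, gave 34.8, 36.5 and 34.8 FPKM in control libraries. OGD/R libraries held 104.5, 109.8 and 104.1 FPKM of it and mimic libraries 109.1, 107.4 and 109.4 FPKM. The 6 OGD/R-treated libraries lay within 104.1 to 109.8 FPKM, the narrowest range of the genes that rose when set against its mean. Its log2 fold change was 1.58 (SE 0.05, adjusted p = 3.03e-07 from limma). The ratio of Hk2 to Slc2a1 within a library was 1.49 to 1.65 in the controls and 1.29 to 1.51 after OGD/R, which overlapped (exact permutation test, two-sided, p = 0.3, n = 3 per group).

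Pfkfb3, the enzyme that makes fructose 2,6-bisphosphate, the activator of phosphofructokinase, is itself a known target of hypoxia-inducible factor 1. Control libraries held 24.0, 25.2 and 24.2 FPKM of it, OGD/R libraries 21.5, 25.4 and 24.9 FPKM and mimic libraries 25.8, 24.2 and 22.6 FPKM, and the 3 groups overlapped. OGD/R against control gave a log2 fold change of -0.04 (95% confidence interval -0.22 to 0.15, adjusted p = 0.753 from limma), which is a fold of 0.858 to 1.11. The sign depended on scaling, with 0.14 after quantile normalization, 0.19 after median-of-ratios scaling and 0.21 after upper-quartile scaling. Within a library Pfkfb3 stood at 0.691, 0.689 and 0.696 of the level of Hk2 in the controls and at 0.205, 0.232 and 0.239 after OGD/R. This ratio does not depend on the scaling of the libraries. The groups did not overlap (exact permutation test, two-sided, p = 0.1, the smallest that 3 against 3 libraries can give, and 0.2 after adjustment over the 24 ratio comparisons made).

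The most abundant enzymes rose by smaller factors from high levels. Gapdh, which oxidises glyceraldehyde 3-phosphate and is often taken as a reference gene, gave 3577, 4354 and 3764 FPKM in control libraries. OGD/R libraries held 6255, 5727 and 5927 FPKM and mimic libraries 5424, 6494 and 5584 FPKM. It was the feature at position 3 or 4 by FPKM in the controls and at position 2 in each of the 6 OGD/R-treated libraries. Its log2 fold change after OGD/R was 0.62 (SE 0.11, adjusted p = 0.00151 from limma), with 0.33 under quantile normalization and 0.87 under upper-quartile scaling. Quantile normalization gives each position the same value in every library, so the 0.33 is set by these positions alone. When the number of features above 0 entered the model, a choice made with the data in view, the log2 fold change of Gapdh was 0.61 and missed the threshold (SE 0.21, adjusted p = 0.0677 from limma, range over all alternatives 0.000222 to 0.0677).

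Ldha, the lactate dehydrogenase subunit that favours the making of lactate from pyruvate, was at 1544, 1577 and 1538 FPKM in the controls. After OGD/R it was at 2952, 2928 and 2519 FPKM and with mimics at 2533, 2519 and 2718 FPKM. OGD/R replicate 3 stood with mimic replicates 1 and 2 for Ldha, as for Vegfa. For Adm (113 FPKM) and Hk2 (104.1 FPKM) it lay below both of them. The log2 fold change after OGD/R was 0.85 (SE 0.08, adjusted p = 5.26e-05 from limma), and 0.92 without replicate 3 of both OGD/R-treated groups. The ratio of Ldha to Gapdh within a library was 0.362 to 0.432 in the controls and 0.425 to 0.511 after OGD/R, which overlapped (exact permutation test, two-sided, p = 0.2, n = 3 per group).

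**Figure D3:**
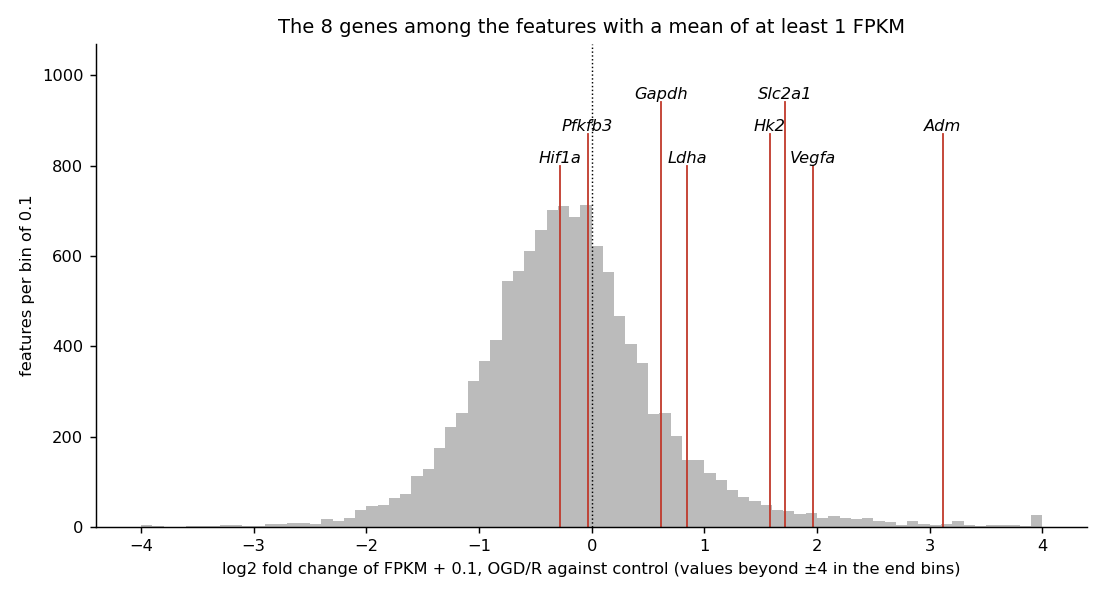
Number of features per bin of 0.1 (vertical axis) by log2 fold change of FPKM + 0.1, OGD/R against control (horizontal axis), for the 11798 features that averaged 1 FPKM or more. Red lines mark the 8 genes. The median of these features is -0.23, near Hif1a at -0.28, and Adm lies at 3.12 in the right tail.

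The order of the 8 genes by level changed with OGD/R below the leading pair. In the controls it was Gapdh (3898 ± 406 FPKM, mean ± SD, n = 3), Ldha (1553 ± 20.8), Hif1a (71.4 ± 2.29), Hk2 (35.4 ± 1.00), Pfkfb3 (24.5 ± 0.609), Slc2a1 (22.5 ± 1.79), Vegfa (20.8 ± 0.586) and Adm (15.3 ± 0.629). Neighbours overlapped for Pfkfb3 with Slc2a1 and for Slc2a1 with Vegfa. After OGD/R, Adm (134.8 ± 21.0 FPKM) moved from last place to the place after Gapdh (5970 ± 267) and Ldha (2799 ± 244). It was followed by Hk2 (106 ± 3.14), Vegfa (81.9 ± 14.4), Slc2a1 (74.2 ± 6.15), Hif1a (58.7 ± 2.70) and Pfkfb3 (23.9 ± 2.15), with overlap of Vegfa and Slc2a1 alone. With mimics the order was the same, and none of the neighbours overlapped, Adm being at 163 ± 13.1 FPKM and Vegfa at 93.8 ± 10.5. The 8 genes together held 0.816% to 0.942% of the summed FPKM of a library of the control group, 1.38% to 1.52% in OGD/R libraries and 1.32% to 1.47% in mimic libraries.

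FPKM are relative to the other RNA of a library, and the choice of scale moved the changes. Over features that averaged 1 FPKM or more, the median log2 fold change after OGD/R was -0.23 with FPKM as deposited, -0.059 after quantile normalization, -0.012 after median-of-ratios scaling and 0.008 after upper-quartile scaling. Adm, Vegfa, Slc2a1, Hk2, Ldha and Gapdh stayed higher at an adjusted p under 0.05 from limma under each of these, with 3.05 to 3.36 for Adm, 1.82 to 2.21 for Vegfa, 1.68 to 1.96 for Slc2a1, 1.56 to 1.83 for Hk2, 0.81 to 1.09 for Ldha and 0.33 to 0.87 for Gapdh (lowest and highest log2 fold change over the alternatives planned, single-library omissions aside). Expressed relative to Gapdh of the same library, as is common in quantitative PCR, the log2 fold changes after OGD/R became 2.50 for Adm, 1.34 for Vegfa, 1.10 for Slc2a1 and 0.96 for Hk2. On that scale Ldha (0.23, SE 0.13, adjusted p = 0.148 from limma, range over all alternatives 6.99e-06 to 0.148) no longer passed the threshold, Hif1a was at -0.90, and Pfkfb3 passed it as lower (-0.66, SE 0.14, adjusted p = 0.00184 from limma, range over all alternatives 0.00184 to 0.926). The median of features that averaged 1 FPKM or more was then -0.85. This scale was added after seeing the data. Of the features called over the whole table after OGD/R, 35.1% were higher with FPKM as deposited, 45.2% after quantile, 52% after median-of-ratios scaling, 53.4% after upper-quartile scaling and 7.36% relative to Gapdh. For mimics against control the same shares were 37.5%, 44.7%, 53.1%, 58.4% and 10.5%.

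Without replicate 3 of both OGD/R-treated groups, OGD/R against control gave log2 fold changes of 3.24 for Adm, 1.77 for Slc2a1, 1.60 for Hk2, 0.62 for Gapdh and -0.07 for Pfkfb3. Hif1a was at -0.28 in that fit (SE 0.09, adjusted p = 0.041 from limma). The same genes passed the threshold as with all libraries.

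**Figure D4:**
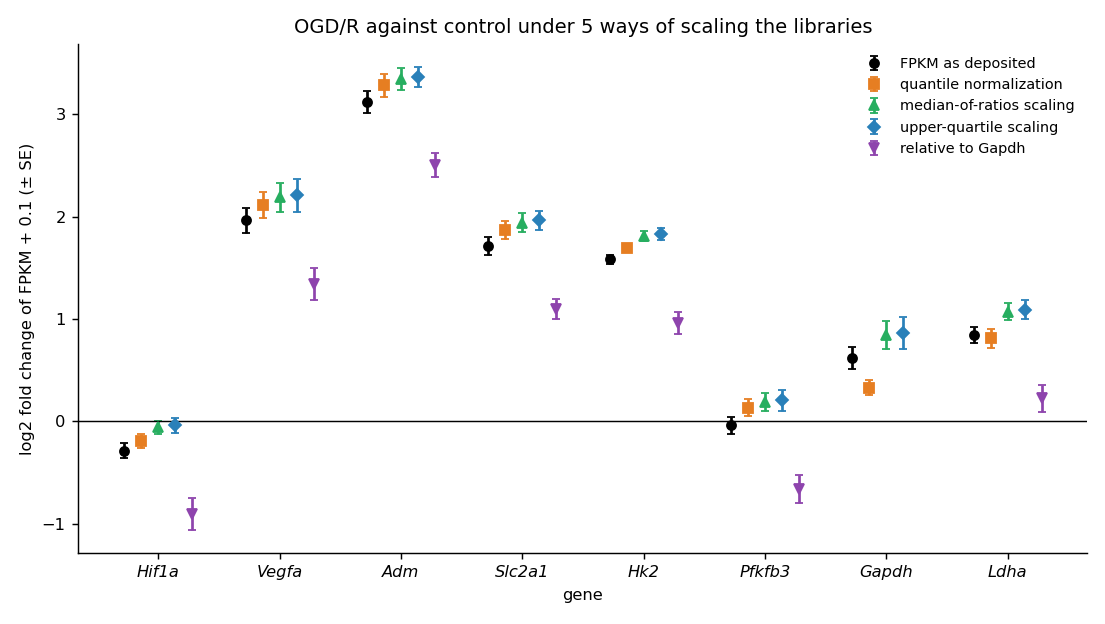
Log2 fold change of FPKM + 0.1 after OGD/R against control (vertical axis, ± SE from limma) for each gene (horizontal axis) with FPKM as deposited and under 4 other scales. Adm, Vegfa, Slc2a1 and Hk2 stay above 0.9 on each scale, Hif1a moves from -0.28 to -0.038 after upper-quartile scaling, Pfkfb3 crosses 0, and Gapdh has no value relative to itself.

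Between mimics and OGD/R, 0 of the 8 genes and 0% of all features passed an adjusted p of 0.05 with limma. At an unadjusted p under 0.05 there was 1 gene, Adm, and 6.87% of all features. The libraries of the 2 groups overlapped for each of the 8 genes, and for all but 8.41% of the features tested. Adm had a ratio of means of 1.21, mimics to OGD/R (log2 fold change 0.28, SE 0.11, unadjusted p = 0.0321 and adjusted p = 0.703 from limma), with mimic libraries at 148 to 171 FPKM and OGD/R libraries at 113 to 155 FPKM. Over single omissions the log2 fold change of Adm ran from 0.16 without OGD/R replicate 3 to 0.39 without OGD/R replicate 1. The unadjusted p-values of these 2 fits were 0.0996 and 0.00555 and the adjusted ones 0.386 and 0.686, all from limma. The 95% confidence interval of the fold with mimics was 1.02 to 1.45 for Adm, 0.949 to 1.40 for Vegfa, 0.859 to 1.13 for Slc2a1 and 0.953 to 1.10 for Hk2. It was 0.821 to 1.04 for Hif1a, 0.891 to 1.15 for Pfkfb3, 0.822 to 1.16 for Gapdh and 0.817 to 1.05 for Ldha. Every one of these 8 intervals, which are not adjusted for the number of features, lies between 0.817 and 1.45. The median log2 fold change of the 8 genes was -0.001, beside 0 for all features tested.

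Replicate 3 of both groups was left out because each had its best correlation with a library of the other group. This also held for replicate 1 of both groups, which was kept. The choice by itself widens the gap between these groups, so the values of that fit, with 2 libraries a group, are a description. Of the 8 genes, Vegfa had an adjusted p under 0.05 there. Its mimic libraries were then at 102 and 96.9 FPKM and its OGD/R libraries at 76.4 and 71.1 FPKM, a log2 fold change of 0.43 (SE 0.06, adjusted p = 0.0296 from limma, range over all alternatives 0.0296 to 1). In that fit 823 of 19056 features had an adjusted p under 0.05 from limma, against 0 with all libraries, and 49.8% of them were higher with mimics, which is 2.15% of the features tested. Ldha had a log2 fold change of -0.22 there (unadjusted p = 0.0176, adjusted p = 0.115 from limma) and Adm of 0.13 (adjusted p = 0.446 from limma). With all libraries and the number of features above 0 as a covariate, the log2 fold change of Vegfa was -0.009. That of Adm was then 0.44 (unadjusted p = 0.0013, adjusted p = 0.394 from limma). Whether the labels of the third replicates bear on the difference between the fits with and without them was not tested.

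The cells with mimics were also compared with control. This comparison shares its control libraries with the one of OGD/R, so the values of both only stand side by side. Again 6 of the 8 genes were higher and Hif1a lower, beside 18.6% of all features higher and 31.0% lower at an adjusted p under 0.05 from limma. Of the features that averaged 1 FPKM or more, 21% were higher and 45.7% lower at that limit. The libraries did not overlap for 7 of the 8 genes, for 57.3% of all features and for 75.3% of the more abundant set. A log2 fold change of 1 or more at an unadjusted p under 0.05 from limma was reached upward by 4 of the 8 genes, beside 9.63% of all features. The log2 fold changes were 3.40 for Adm, 2.17 for Vegfa, 1.70 for Slc2a1, 1.62 for Hk2, 0.74 for Ldha, 0.58 for Gapdh, -0.02 for Pfkfb3 and -0.40 for Hif1a. With features above 0 as a covariate, Vegfa had 1.45, below Slc2a1 (1.92) and Hk2 (1.66). Without replicate 3 of both OGD/R-treated groups the values were 3.37 for Adm, 2.26 for Vegfa, 1.68 for Slc2a1, 1.61 for Hk2, 0.70 for Ldha, 0.61 for Gapdh, 0.03 for Pfkfb3 and -0.43 for Hif1a. Hif1a again missed the threshold after median-of-ratios scaling (-0.156, adjusted p = 0.0759) and upper-quartile scaling (-0.076, adjusted p = 0.414, both from limma), and with features above 0 as a covariate (-0.32, adjusted p = 0.289 from limma). Pfkfb3 passed it as higher after upper-quartile scaling (0.30, adjusted p = 0.0385) and as lower relative to Gapdh (-0.60, adjusted p = 0.00313, both from limma). Gapdh missed it with the covariate (0.57, adjusted p = 0.198) and Ldha relative to Gapdh (0.155, adjusted p = 0.318, both from limma).

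The DNA before the start sites was read for the core of the hypoxia response element, the short motif that hypoxia-inducible factors bind. The letters searched were ACGTG and GCGTG on both strands, in the 250 bases before each start site in RefSeq (GRCr8), a build not stated for the deposited values. The 8 genes matched the promoter table by symbol, with 2 start sites for Vegfa and 1 for each of the others. ACGTG was present for Hif1a, Slc2a1, Pfkfb3, Gapdh and Ldha, 5 of the 8 genes, and in 16.6% of the 33469 promoters of the table. GCGTG was present for Slc2a1, Gapdh and Ldha, and in 25.9% of all promoters. Both motifs hold a CG, and the windows of these 5 genes had a GC content of 63.6% to 73.6%, against a median of 51.2% over all promoters. Neither motif was found before the start sites of Adm, Vegfa or Hk2, whose windows had a GC content of 58.8% for Adm, 60.4% and 56% for Vegfa and 49.6% for Hk2. Either motif was present for 5 of the 8 genes and in 36.7% of all promoters. Of the 6 genes that were higher after OGD/R, Slc2a1, Gapdh and Ldha had matches and Adm, Vegfa and Hk2 had none, and Hif1a and Pfkfb3 had matches. A match is a description of these letters and not of binding, and nothing was measured beyond these windows.

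The windows of Adm, Slc2a1, Ldha and Pfkfb3 are printed because they include genes with and without a match, 5′ to 3′ on the strand of the gene, with every ACGTG or GCGTG of either strand in capitals. CACGTG holds ACGTG on both strands, and the reverse forms read CACGT and CACGC. They lie at chr1:174179950-174180199 (Adm), chr5:138002272-138002521 (Slc2a1), chr1:106507842-106508091 (Ldha) and chr17:71944683-71944932 (Pfkfb3), all on the plus strand of GRCr8. Counted back from the start site, ACGTG in Slc2a1 begins at base 51, the CACGTG of Ldha at base 87 and that of Pfkfb3 at base 42.
Adm: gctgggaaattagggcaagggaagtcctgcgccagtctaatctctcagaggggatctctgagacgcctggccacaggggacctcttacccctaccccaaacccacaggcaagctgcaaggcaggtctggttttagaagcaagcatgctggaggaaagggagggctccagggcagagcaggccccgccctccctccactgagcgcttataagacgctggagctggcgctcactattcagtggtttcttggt
Slc2a1: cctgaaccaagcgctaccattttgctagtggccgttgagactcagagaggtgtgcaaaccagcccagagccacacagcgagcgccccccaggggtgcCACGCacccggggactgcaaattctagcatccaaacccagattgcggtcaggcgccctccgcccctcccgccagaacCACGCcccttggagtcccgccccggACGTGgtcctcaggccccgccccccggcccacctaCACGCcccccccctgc
Ldha: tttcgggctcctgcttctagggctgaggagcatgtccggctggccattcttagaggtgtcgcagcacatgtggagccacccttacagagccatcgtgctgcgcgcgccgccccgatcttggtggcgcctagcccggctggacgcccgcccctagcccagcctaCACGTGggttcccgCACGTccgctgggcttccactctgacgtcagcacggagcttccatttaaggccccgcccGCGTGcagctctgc
Pfkfb3: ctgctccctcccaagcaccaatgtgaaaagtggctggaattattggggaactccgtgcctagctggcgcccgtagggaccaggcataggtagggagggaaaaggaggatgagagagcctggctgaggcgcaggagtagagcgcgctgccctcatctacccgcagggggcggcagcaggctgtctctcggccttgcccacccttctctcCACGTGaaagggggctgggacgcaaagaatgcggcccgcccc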

How the data were processed

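RNA from 9 libraries of PC12 cells was measured, 3 per group, with groups and replicate numbers from the sample titles. After read filtering, the authors quantified transcripts by RSEM, and the values they deposited are FPKM for every feature of a library, with 2 decimals. The submitters' processing notes also name Bowtie2 (2.3.3.1) and Cufflinks (2.2.1), and 2 library kits are named for all samples alike. The genome build is not given in the sources used here. An agent of the culture medium that the sources name is not reported here.

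FPKM are not counts, so log2(FPKM + 0.1) was fitted with limma (3.58.1, R 4.3.3; lmFit, eBayes with trend) in 1 model of 3 groups with 6 residual degrees of freedom. Tests were two-sided, with Benjamini-Hochberg adjustment over 19394 features. A further 4032 had no value above 0 and were not tested. The fit was first tested on simulated data. RSEM divides reads between genes, so gene families with near-identical copies, such as Gapdh and its pseudogenes, carry extra uncertainty, and whole reads could not be recovered. Ratios of genes within a library were compared by exact permutation.

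The genes, lists and tests were chosen with earlier results of these data known. All 8 genes are named whatever their result. Planned lists of further pathway genes and cell markers, and the genes most like Vegfa and Adm, were not analysed, because identifiers could not be paired with symbols. Correlations between the 8 genes are not given, since the control libraries form a cluster of their own. Alternatives were pseudocounts of 1 and 0.01, a mean of at least 1 FPKM, quantile, upper-quartile (75th percentile) and median-of-ratios scaling, only the 2 groups compared, a replicate block, leaving out replicate 3 of both OGD/R-treated groups, and leaving out each library. Values relative to Gapdh and a covariate of features above 0 were added after seeing the data. The covariate does not overlap between controls and OGD/R-treated libraries, so its fits against control cannot separate it from the treatment.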

Additional observations from a re-analysis of the deposited data

How the results depend on the processing

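Each log2 fold change was recomputed under 20 alternatives (19 for Gapdh). Of these 477 values, 441 kept the call without changing sign. Among them was Gapdh between mimics and OGD/R under quantile normalization, whose value was 0 and so had no sign. A further 12 lost the call, 3 gained one with the same sign and 21 changed sign. The 21 include Pfkfb3 with mimics against control under upper-quartile scaling, which also gained a call. The cause was not tested for any of them. The number of the 8 genes with an adjusted p under 0.05 was 7 for OGD/R against control, from 5 with features above 0 as a covariate to 7. It was likewise 7 for mimics against control, from 5 with that covariate to 7. Between mimics and OGD/R it was 0, and 1 without replicate 3 of both groups. Over the omissions of single libraries these counts were 6 to 7, 7 to 7 and 0 to 0. Over all features, 8913 were called for OGD/R against control and 9622 for mimics against control, and the fits with the covariate called 4730 and 3128. Between mimics and OGD/R, 0 features were called, 9 with a pseudocount of 0.01, 0 to 11 over single omissions and 823 without replicate 3 of both groups.

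Pfkfb3 after OGD/R had 0.135 with quantile normalization, 0.208 with upper-quartile and 0.188 with median-of-ratios scaling, and -0.083 to 0.039 over the omissions of single libraries. For Pfkfb3 with mimics against control the same 3 gave 0.174, 0.298 and 0.219, the fit without replicate 3 of both groups gave 0.030, and single omissions -0.068 to 0.030. Between mimics and OGD/R, Slc2a1 had 0.054 with upper-quartile scaling, 0.018 relative to Gapdh, 0.047 with the covariate and -0.071 to 0.048 over single omissions. Gapdh had 0.036 with upper-quartile scaling and -0.116 to 0.014 over single omissions, Pfkfb3 -0.053 with the covariate and -0.058 to 0.067 over single omissions, and Vegfa -0.009 with the covariate.

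A replicate block gave counts of 7 for OGD/R against control, 7 for mimics against control and 0 between mimics and OGD/R, and changed no call. Deviations of same-numbered libraries from their group means had correlations across genes from -0.465 to 0.219. The lowest was between replicate 3 of OGD/R and of mimics, and the highest between replicate 2 of control and of mimics. Deviations from means of 3 libraries are tied to each other within a group, so these values cannot decide whether the numbers pair the libraries. Total depth is unknown from FPKM, so its part in the higher number of features above 0 after OGD/R was not tested.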
